A study of Homo sapiens with 6 samples.

Results

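The 37 genes of the human mitochondrial genome were followed in 143B cells after treatment with TPBC-PEG. They were found as the rows of the count table whose gene symbol starts with MT-, which gave 37 of 60683 rows: 13 mRNAs, 2 rRNAs and 22 tRNAs. 143B is an established human osteosarcoma cell line, and derivatives of it that have lost mitochondrial DNA are widely used to receive mitochondria from other cells. One group of 3 libraries came from cells given PBS for 24 h and the other group of 3 from cells given TPBC-PEG for 24 h, a compound that the series title places in photodynamic therapy. The sample titles give its dose as 3 µM and the treatment protocol as 300 µM. Both groups grew in the same medium with serum, and the sources used here do not say whether either was exposed to light. The labels do not say that replicates were separate cultures, so p-values measure the spread between these libraries, which may be technical.

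Library totals ran from 15726323 to 20486584 counts. Levels are given as CPM, a library's counts divided by its total after TMM scaling, and a gene was called when its Benjamini-Hochberg adjusted p in edgeR's quasi-likelihood test over 15846 genes was under 0.05. Of 6 osteosarcoma and mesenchymal markers looked for, all 6 were found, with VIM between 2290 and 2590 CPM. COL1A1 lay between 17.6 and 29.9 CPM in the same libraries, and ALPL, the lowest of the 6, between 3.91 and 5.68 CPM. The blood cell markers PTPRC and CD3E and the gut marker KRT20 had from 1 to 3 counts in all libraries together, and the vessel marker PECAM1 had 7. The monocyte marker CD14 had 83 counts in all, at 0.103 to 1.04 CPM, and the liver marker ALB 74, at 0.482 to 0.874 CPM. The epithelial marker EPCAM lay between 15.1 and 17.7 CPM in both groups.

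Human mitochondrial DNA is a small circle that is transcribed from both strands into long precursors, from which tRNAs are cut out so that the mRNAs and rRNAs between them are released. Its mRNAs encode subunits of respiratory complexes I, III and IV and of the ATP synthase, complex V, all of which are completed with subunits made from nuclear genes. Its rRNAs and tRNAs serve the mitochondrial ribosome. The transcript of the heavy-strand promoter holds 12 mRNAs, both rRNAs and 14 tRNAs, and that of the light-strand promoter holds MT-ND6 and 8 tRNAs.

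Mitochondrial transcripts were lower in TPBC-PEG libraries. Of the 21 members with enough reads to be tested, 14 fell, 0 rose and 7 were not called, beside 16.9% of all tested genes that fell and 16.2% that rose. At an unadjusted p under 0.05 the number that rose was also 0, and it was 0 with DESeq2 and limma-voom. By kind, 9 of 13 mRNAs, 1 of 2 rRNAs and 4 of the 6 tested tRNAs fell. The median log2 fold change was -0.32 over the mRNAs and 0.011 over all tested genes. When a library was left out, the median over the mRNAs ran from -0.385 (without PBS replicate 1) to -0.239 (without PBS replicate 3). In 14 members every TPBC-PEG library lay below every PBS library, beside 21.4% of all tested genes. The 37 genes took 6.32%, 6.49% and 7.25% of all counts in PBS replicates 1 to 3 and 5.55%, 5.59% and 5.77% in TPBC-PEG replicates 1 to 3. The groups did not overlap, and PBS replicate 3 was the highest library. In these libraries, less RNA per mitochondrial genome, fewer genomes per cell and a different mix of cells cannot be told apart.

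**Figure D1:**
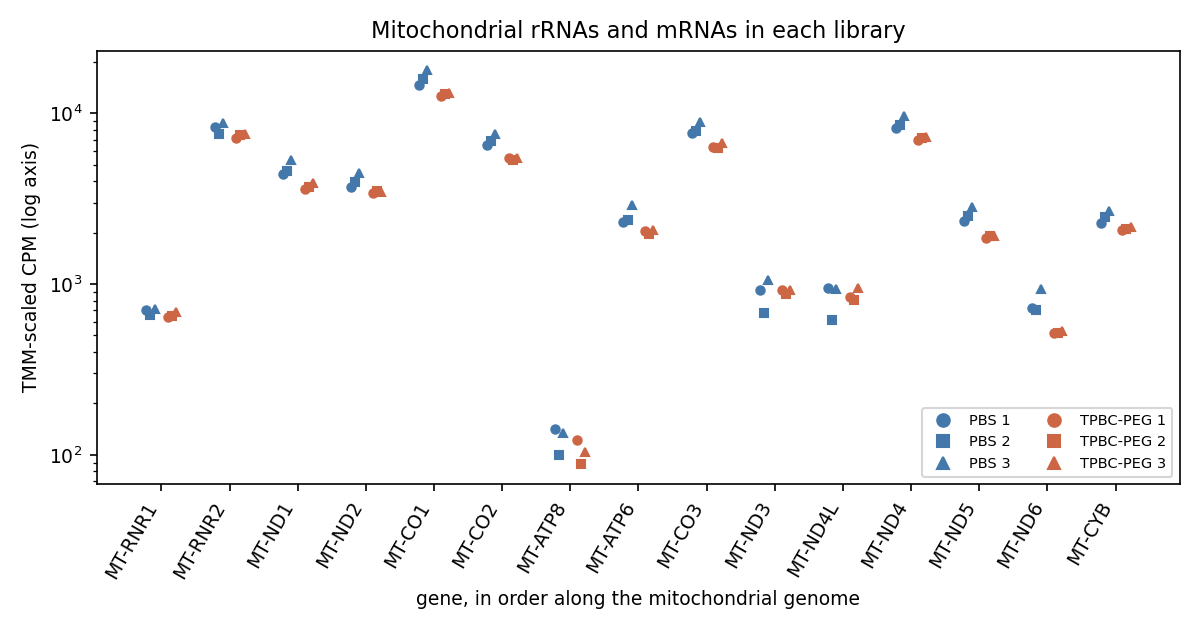
Level of each mitochondrial rRNA and mRNA in each library, as TMM-scaled CPM on a log axis, with genes in their order along the mitochondrial genome and a marker shape for each replicate number. MT-CO1 is highest, from 12672 to 17818 CPM, and MT-ATP8 is lowest, from 88.1 to 142 CPM. For most mRNAs the TPBC-PEG points lie below the PBS points, while those of MT-ND3, MT-ND4L and MT-ATP8 mix.

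Complex I takes electrons from NADH, and its membrane arm holds the 7 mitochondrially encoded subunits. Of these, 5 fell and 2 were not called, with a median log2 fold change of -0.30. MT-ND1 (chrM:3307-4262, plus strand, GRCh38), a subunit at the base of that arm, read 4407, 4586 and 5314 CPM in PBS and 3606, 3696 and 3891 CPM in TPBC-PEG. All TPBC-PEG values were below all PBS values, and the mean fell from 4769 ± 480 to 3731 ± 145 CPM (SD, n = 3 libraries per group), a log2 fold change of -0.35 ± 0.061 (SE) with an adjusted p of 0.000651 in edgeR's test. MT-ND5 (chrM:12337-14148, plus), a large proton-pumping subunit, read 2344, 2515 and 2822 CPM in PBS and 1849.6, 1921 and 1921 CPM in TPBC-PEG. The groups were apart again and MT-ND5 fell by 0.43 ± 0.050 on the log2 scale (edgeR adjusted p 1.21e-06).

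The other called heavy-strand subunits of complex I moved less than MT-ND5. MT-ND4 (chrM:10760-12137, plus) fell by 0.30 ± 0.043 from 8241, 8536 and 9609 CPM to 6941, 7148 and 7296 CPM (edgeR adjusted p 8.31e-07). MT-ND2 (chrM:4470-5511, plus) fell by 0.23 ± 0.051 from 3709, 3964 and 4491 CPM to 3412, 3489 and 3467 CPM (edgeR adjusted p 0.00161; 0.201 with the trend of fold change with expression level among nuclear genes removed). Both are proton-pumping subunits, and in both the groups were apart with PBS replicate 3 highest. MT-ND3 and MT-ND4L, small membrane subunits, were not called and are described with the short mRNAs.

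Complex III passes electrons to cytochrome c, and cytochrome b, its one mitochondrially encoded subunit, carries its haem groups in the membrane. The MT-CYB mRNA (chrM:14747-15887, plus) read 2291, 2481 and 2688 CPM in PBS and 2069, 2090.0 and 2162 CPM in TPBC-PEG. The groups were apart, and MT-CYB fell by 0.24 ± 0.042 on the log2 scale (edgeR adjusted p 3e-05).

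Complex IV, cytochrome c oxidase, reduces oxygen, and its 3 mitochondrially encoded subunits form its core. All 3 fell, with a median log2 fold change of -0.35. MT-CO1 (chrM:5904-7445, plus), which holds the oxygen-reducing centre, read 14591, 15814 and 17818 CPM in PBS and 12672, 12920.0 and 13081 CPM in TPBC-PEG. Each PBS library was above each TPBC-PEG library, and the log2 fold change was -0.32 ± 0.053 (edgeR adjusted p 9.09e-05). MT-CO2 (chrM:7586-8269, plus), which accepts electrons from cytochrome c, read 6546, 6870.3 and 7513 CPM against 5477, 5354 and 5465 CPM. It fell by 0.36 ± 0.040 with the groups apart (edgeR adjusted p 6.96e-10). MT-CO3 (chrM:9207-9990, plus), a core subunit without metal centres, went from 7702, 7887 and 8883 CPM to 6336, 6226 and 6687 CPM. It fell by 0.35 ± 0.044 (edgeR adjusted p 9.21e-08), and no library of one group reached into the other.

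Complex V makes ATP, and both of its mitochondrially encoded subunits missed the threshold in edgeR's test, while limma-voom called both lower. MT-ATP6 (chrM:8527-9207, plus), part of the proton channel, read 2316, 2368 and 2908 CPM in PBS and 2031, 1973 and 2085 CPM in TPBC-PEG. The groups were apart, yet with a log2 fold change of -0.32 ± 0.10 the edgeR adjusted p was 0.0748. Its edgeR adjusted p was 0.00973 without PBS replicate 1, 0.0475 without PBS replicate 2 and 2.3e-05 without PBS replicate 3. It was also called lower with no filter on low counts (edgeR adjusted p 0.0138), with DESeq2 (adjusted p 0.016) and with limma-voom (adjusted p 2.48e-05). MT-ATP8 (chrM:8366-8572, plus), a small membrane subunit, had a log2 fold change of -0.27 ± 0.20 and overlapping groups (edgeR adjusted p 0.406; limma-voom adjusted p 0.0323).

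**Figure D2:**
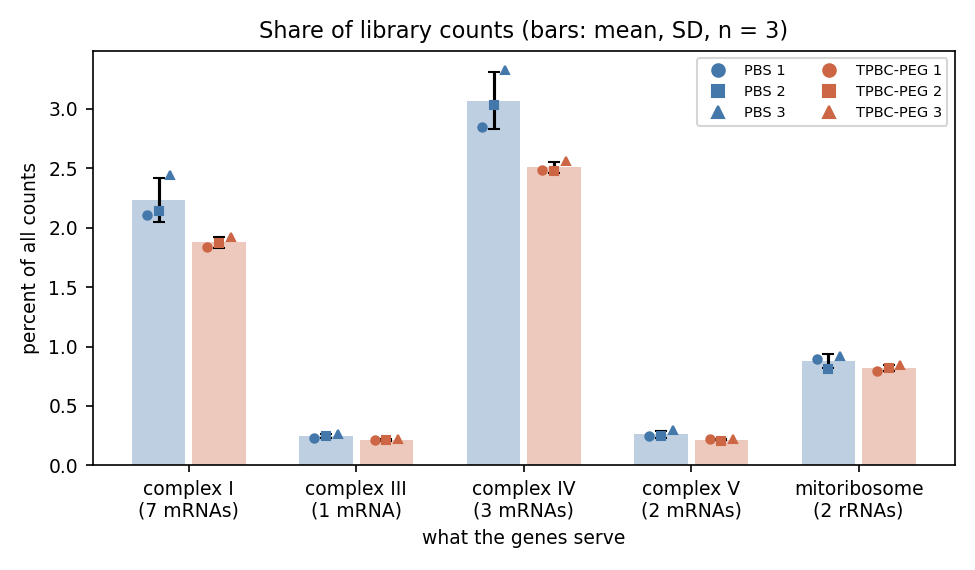
Share of all counts, in percent, taken by the mRNAs of each respiratory complex and by the 2 rRNAs. Bars are means of 3 libraries with the SD, and points are libraries. The mRNAs of complex IV went from 3.07% to 2.51% and those of complex I from 2.23% to 1.88% with no overlap between groups, while the rRNA points overlap.

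Relative to each other the complexes kept close to the same shares. Of all mitochondrial mRNA counts, complex IV took 52.9% ± 0.569 in PBS and 52.1% ± 0.189 in TPBC-PEG (SD, n = 3), with the groups apart. Complex I took 38.4% ± 0.539 and 38.97% ± 0.267 with overlap, and complex V 4.49% ± 0.176 and 4.495% ± 0.112 with overlap. The single mRNA of complex III took 4.22% ± 0.114 and 4.44% ± 0.0167, higher in every TPBC-PEG library. These shares sum to the whole, so they move against each other, and they were not tested.

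Compared per kilobase of gene length, the order of levels in PBS began with MT-CO1 at 10424 ± 1056, MT-CO3 at 10404 ± 810 and MT-CO2 at 10199 ± 720 CPM per kilobase (SD, n = 3), whose ranges overlapped one another. MT-ND4 followed at 6383 ± 523 with no overlap with the mRNAs above it. MT-RNR2 and MT-ND1 overlapped each other at 5272 ± 405 and 4989 ± 502. Next were MT-ND2 and MT-ATP6, then MT-ND4L, MT-ND3 and MT-CYB, then MT-ND6 and MT-ND5, in groups whose neighbours overlapped within them and not between them. MT-RNR1 at 729 ± 30.6 and MT-ATP8 at 606 ± 108 CPM per kilobase were lowest. Among the mRNAs of the heavy-strand transcript, the log2 fold change showed little relation to position, with a Spearman rho of 0.196 over 12 genes and 0.0333 over the 9 of them longer than 500 bases. These points share the same 6 libraries and are a description.

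**Figure D3:**
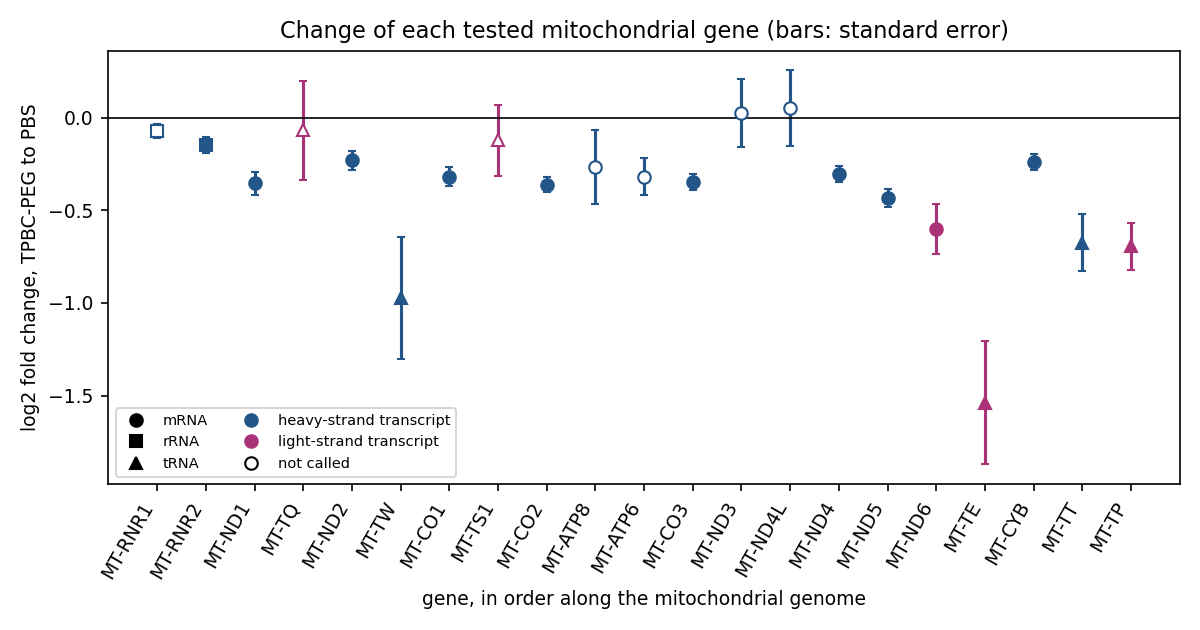
Log2 fold change of TPBC-PEG to PBS for the 21 tested mitochondrial genes in their order along the genome, with the standard error as bars, open symbols where a gene was not called, and colour for the transcribed strand. The mRNAs of the heavy-strand transcript that were called lie between -0.43 and -0.23, MT-ND6 of the light-strand transcript lies at -0.60, and MT-TE is lowest at -1.54.

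MT-ND6 is the one mRNA of the light-strand transcript and encodes a membrane subunit of complex I. Its gene (chrM:14149-14673, minus strand) and that of MT-ND5 on the plus strand end side by side. The last bases of both genes in the GENCODE release 29 transcripts on GRCh38 show how they meet tail to tail, with the closing codon of each in capitals.
MT-ND5 (chrM:14109-14148, plus): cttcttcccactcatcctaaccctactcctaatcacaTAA
MT-ND6 (chrM:14149-14188, minus): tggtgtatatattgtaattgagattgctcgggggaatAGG
MT-ND6 read 726, 701 and 941 CPM in PBS and 514, 514 and 531 CPM in TPBC-PEG. The groups were apart, the TPBC-PEG libraries lay close together, and PBS replicate 3 stood above the others. The mean fell from 789 ± 132 to 519.9 ± 9.72 CPM (SD, n = 3), a log2 fold change of -0.60 ± 0.13 (edgeR adjusted p 0.0308). The call was lost without PBS replicate 1 (edgeR adjusted p 0.0588) and without TPBC-PEG replicate 1, 2 or 3 (0.105, 0.11 and 0.0913). Whether counting used strand is not given in the sources used here, and without strand the reads of transcripts from opposite strands over the same positions cannot be told apart.

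The log2 ratio of MT-ND5 to MT-ND6 within a library does not depend on scaling, and sets the strands side by side. It was 1.69, 1.84 and 1.585 in PBS and 1.85, 1.90 and 1.855 in TPBC-PEG. All TPBC-PEG ratios were higher than all PBS ratios, by 0.16 on average, with an exact two-sided permutation p of 0.1 and an adjusted p of 0.167 over 5 ratios. With 3 libraries against 3 this test cannot give less than 0.1, so it cannot pass 0.05. MT-CYB, the last mRNA of the heavy-strand transcript, was compared with MT-ND1, the first, in the same way. That log2 ratio was also higher in every TPBC-PEG library, by 0.11 (exact permutation p 0.1, adjusted 0.167).

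The rRNAs moved less. MT-RNR2 (chrM:1671-3229, plus), the RNA of the large ribosomal subunit, read 8341, 7536 and 8781 CPM in PBS and 7202, 7451 and 7609 CPM in TPBC-PEG. PBS replicate 2 lay below the highest TPBC-PEG library, so the groups overlapped. MT-RNR2 fell by 0.15 ± 0.043 on the log2 scale (edgeR adjusted p 0.00631), a call lost without TPBC-PEG replicate 1 (0.0638). It was also lost when the trend of fold change with expression level among nuclear genes was removed (log2 fold change 0.0080, edgeR adjusted p 0.917). MT-RNR1 (chrM:648-1601, plus), the RNA of the small subunit, read 707, 662 and 717 CPM in PBS and 643, 654 and 689.9 CPM in TPBC-PEG. Its groups overlapped and its log2 fold change was -0.071 ± 0.037 (edgeR adjusted p 0.147). It was called lower without PBS replicate 2 (edgeR adjusted p 0.03) and with the trend of fold change with GC content among nuclear genes removed (0.0234).

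The counts of both rRNAs together were 16.5%, 14.35% and 14.6% of the mitochondrial mRNA counts in PBS and 16.8%, 17.2% and 17.1% in TPBC-PEG. This ratio was higher in each TPBC-PEG library than in any PBS library, although PBS replicate 1 came close. The log2 ratio of MT-ND1 to MT-RNR2, which lie next to each other on the same precursor apart from a tRNA, was -0.92, -0.72 and -0.72 in PBS and -0.998, -1.01 and -0.968 in TPBC-PEG. It was lower by 0.21 on average with the groups apart (exact two-sided permutation p 0.1, adjusted 0.167 over 5 ratios). Whether the libraries were made with poly(A) selection or with rRNA removal is not given in the sources used here, and rRNA levels depend on that step.

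Mitochondrial tRNAs carry amino acids to the mitochondrial ribosome and, in the precursor, mark where it is cut. They gave few reads: 8 of the 22 had 0 counts in every library and 8 more had too few to be tested, the highest total among these being 58 counts, for MT-TY. The 6 that could be tested are shown 5′ to 3′ as the GENCODE release 29 transcripts on GRCh38 give them, with the anticodon in capitals. The first 4 fell and the last pair did not pass the test.
MT-TE (chrM:14674-14742, minus): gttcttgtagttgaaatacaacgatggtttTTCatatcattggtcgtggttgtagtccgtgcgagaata
MT-TT (chrM:15888-15953, plus): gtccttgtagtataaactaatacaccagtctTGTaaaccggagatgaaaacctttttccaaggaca
MT-TP (chrM:15956-16023, minus): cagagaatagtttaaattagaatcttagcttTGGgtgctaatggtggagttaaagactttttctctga
MT-TW (chrM:5512-5579, plus): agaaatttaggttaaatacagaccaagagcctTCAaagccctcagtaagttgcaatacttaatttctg
MT-TQ (chrM:4329-4400, minus): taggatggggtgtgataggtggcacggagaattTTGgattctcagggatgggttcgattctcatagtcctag
MT-TS1 (chrM:7446-7514, minus): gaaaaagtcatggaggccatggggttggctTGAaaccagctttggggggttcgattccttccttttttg

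MT-TE, the tRNA for glutamate, lies directly before MT-ND6 on the light-strand transcript. It had 30, 36 and 39 counts in PBS and 15, 9 and 14 counts in TPBC-PEG. The groups were apart, and MT-TE fell by 1.54 ± 0.33 on the log2 scale (edgeR adjusted p 0.000225), the largest fall among the 21 tested members, on the few counts given. MT-TT and MT-TP, the tRNAs for threonine and proline, lie end to end on opposite strands after MT-CYB. MT-TT had 149, 150 and 183 counts in PBS and 91, 118 and 111 in TPBC-PEG, and fell by 0.67 ± 0.15 (edgeR adjusted p 0.000551). MT-TP had 189, 182 and 177 counts in PBS and 142, 133 and 85 in TPBC-PEG, and fell by 0.69 ± 0.13 (edgeR adjusted p 2.36e-05). In both the scaled values of the groups were apart.

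MT-TW, the tRNA for tryptophan, had 40, 31 and 17 counts in PBS and 15, 21 and 11 in TPBC-PEG. As CPM the groups were just apart, with 1.07 in PBS replicate 3 and 1.01 in TPBC-PEG replicate 2. It fell by 0.97 ± 0.33 on the log2 scale (edgeR adjusted p 0.0184). The call was lost without PBS replicate 1 (edgeR adjusted p 0.134) or PBS replicate 2 (0.0535), and without TPBC-PEG replicate 1 (0.0677) or TPBC-PEG replicate 3 (0.0744). MT-TQ, the tRNA for glutamine, had the most reads of any tRNA, with 474, 249 and 244 counts in PBS and 375, 329 and 266 in TPBC-PEG. Its groups overlapped and PBS replicate 1 was highest, and its log2 fold change was -0.067 ± 0.27 (edgeR adjusted p 0.889). MT-TS1, a serine tRNA, also overlapped, at a log2 fold change of -0.12 ± 0.19 (edgeR adjusted p 0.677). A read counted at a tRNA gene may come from the mature tRNA or from an uncut precursor, and the counts do not tell these apart.

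By strand, 11 of the 16 tested genes of the heavy-strand transcript and 3 of the 5 tested genes of the light-strand transcript fell. The median log2 fold change was -0.31 over the former and -0.60 over the latter, which is the value of MT-ND6. These sets differ in kind: 12 mRNAs, 2 rRNAs and 2 tRNAs against 1 mRNA and 4 tRNAs. Among the tested tRNAs the order was the other way, with medians of -0.82 on the heavy-strand and -0.41 on the light-strand transcript. The strand setting of the counts is not given. Of the mitochondrial mRNA counts, the heavy-strand mRNAs took 98.7% ± 0.109 in PBS and 98.9% ± 0.00332 in TPBC-PEG (SD, n = 3), higher in every TPBC-PEG library.

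The mRNAs divided at a length of 500 bases, a cut chosen after the values were seen. Over all 13 the log2 fold change had a Spearman rho of -0.313 with length. MT-ND6, at 525 bases just above the cut, had the largest fall of any mRNA. Of the 10 longer than 500 bases 9 fell, the exception being MT-ATP6, and in all 10 the groups were apart. Of the 3 shorter ones 0 fell and all 3 overlapped. MT-ND3 (chrM:10059-10404, plus) read 927, 677 and 1062 CPM in PBS and 926, 870.1 and 919 CPM in TPBC-PEG. PBS held both its lowest and its highest library, and the log2 fold change was 0.026 ± 0.18 (edgeR adjusted p 0.937). MT-ND4L (chrM:10470-10766, plus) read 953, 618 and 936 CPM in PBS and 845, 805 and 949 CPM in TPBC-PEG. The TPBC-PEG values lay within the PBS range, with a log2 fold change of 0.052 ± 0.20 (edgeR adjusted p 0.888). MT-ATP8 read 142, 100.1 and 134 CPM in PBS and 122, 88.1 and 103 CPM in TPBC-PEG, and its groups overlapped too.

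In these short mRNAs replicate 2 was the low library of both groups. Against the mean of the other PBS libraries the log2 level of PBS replicate 2 was -0.555 for MT-ND3, -0.61 for MT-ND4L and -0.465 for MT-ATP8. It was -0.056 at the median of the 10 longer mRNAs. Against the other TPBC-PEG libraries TPBC-PEG replicate 2 was at -0.084, -0.157 and -0.353 for the same 3 mRNAs, and at -0.019 at the median of the longer ones. For 10 nuclear genes shorter than 400 bases with a mean of at least 10 CPM, the median was -0.14 in PBS replicate 2 and 0.20 in PBS replicate 1. It was -0.0665 in TPBC-PEG replicate 2 and 0.043 in TPBC-PEG replicate 1. For 9545 nuclear genes longer than 1000 bases it was -0.0030 in PBS replicate 2 and -0.0013 in PBS replicate 1. Without PBS replicate 2, MT-ND3 had a log2 fold change of -0.14 and passed the test (edgeR adjusted p 0.0155), and MT-ND4L had -0.13 (0.0512). The part that recovery of short transcripts plays in the values of these mRNAs was not tested.

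**Figure D4:**
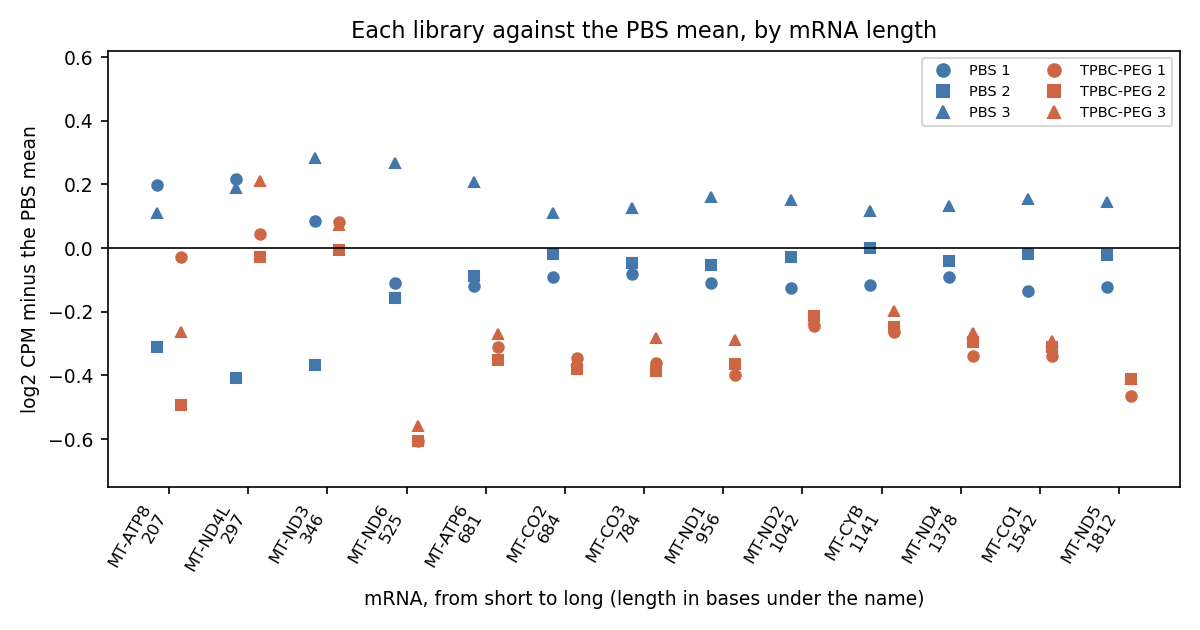
Log2 CPM of each library minus the mean log2 CPM of the PBS libraries, for the 13 mitochondrial mRNAs from the shortest to the longest, with the length in bases under each name. In the 3 shortest mRNAs the lowest or near-lowest point is PBS replicate 2 and the groups mix, and in the 10 longer ones all TPBC-PEG points lie below all PBS points.

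Both the short MT-ATP8 and MT-ND4L share an mRNA with a longer reading frame, MT-ATP6 and MT-ND4. The bases shared by both frames, in capitals, with 15 bases on each side are as follows, read on the plus strand of GRCh38 from the GENCODE release 29 transcripts.
MT-ATP8 into MT-ATP6 (chrM:8512-8587): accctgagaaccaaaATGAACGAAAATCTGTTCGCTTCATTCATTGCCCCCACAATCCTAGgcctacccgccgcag
MT-ND4L into MT-ND4 (chrM:10745-10781): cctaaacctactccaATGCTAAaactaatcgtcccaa
The capitals cover 46 bases in the first and 7 in the second. The frames of an mRNA are present in equal number, but per base the counts of MT-ATP8 were 0.162 of those of MT-ATP6 in PBS and 0.168 in TPBC-PEG. The log2 ratio of MT-ATP8 to MT-ATP6 differed by 0.050 between groups with overlap (exact two-sided permutation p 0.8, adjusted 0.8 over 5 ratios). For MT-ND4L to MT-ND4 the counts per base were in a ratio of 0.434 in PBS and 0.563 in TPBC-PEG, and the log2 ratio was higher by 0.38 with overlap (exact permutation p 0.2, adjusted 0.25). How reads that cover both frames were counted is not given in the sources used here.

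Nuclear chromosomes carry copies of mitochondrial DNA that can share its reads. The table held 404 rows for such copies, of which 4 had enough reads to be tested and 0 were called in edgeR's test. The most abundant, MTATP6P1 (chr1:633696-634376, plus strand, GRCh38), matches MT-ATP6 over 681 bases with 10 differing bases, and its longest run without a difference is 141 bases. A stretch of 60 bases shows how close the copy is, with the bases that differ in capitals.
MT-ATP6 (chrM:8642-8701, plus): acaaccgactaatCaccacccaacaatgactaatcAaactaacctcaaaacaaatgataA
MTATP6P1 (chr1:633811-633870, plus): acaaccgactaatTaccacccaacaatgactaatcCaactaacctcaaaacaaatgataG
MTATP6P1 read 379.6, 227 and 459.6 CPM in PBS and 333, 318 and 383 CPM in TPBC-PEG. It was lowest in PBS replicate 2, as MT-ND3 and MT-ND4L were, and its groups overlapped at a log2 fold change of -0.044 ± 0.29 (edgeR adjusted p 0.934). MTND2P28 (chr1:629640-630683, plus), at 98.4% identity to MT-ND2, read 175, 168 and 208 CPM in PBS and 161, 147 and 162 CPM in TPBC-PEG. Its groups were apart and its log2 fold change was -0.23 ± 0.086, as for MT-ND2, but it was not called (edgeR adjusted p 0.0904). Without PBS replicate 2 or 3 it passed, with edgeR adjusted p of 0.0018 and 0.0259. It also passed with no filter on low counts (edgeR adjusted p 7.78e-07) and with limma-voom (adjusted p 0.0032). With replicate number added to the model its edgeR adjusted p was 0.000174. MTCO1P12 (chr1:631074-632616, plus) and MTND4P12 (chr5:134926660-134928036, minus) also had overlapping groups, the first at 46.7 to 67.1 CPM in PBS and 51.8 to 65.3 CPM in TPBC-PEG, the second at a mean of 2.13 CPM in PBS. Of the 4 copies, 3 were called lower without PBS replicate 2 and 1 without PBS replicate 3. The counts of MT-ATP6, MT-ND2 and MT-CO1 are therefore uncertain by what was assigned to these copies.

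The mitochondrial mRNAs are among the most abundant transcripts, so they were also set beside nuclear genes of like level, a comparison chosen after the values were seen. Of the 233 nuclear genes with at least 500 CPM in PBS, 132 (56.7%) fell and 29 (12.4%) rose (median log2 fold change -0.13). Of the 12 mitochondrial mRNAs at that level 9 fell. At 1000 CPM or more, 33 of 72 nuclear genes (45.8%) and 8 of 9 mitochondrial mRNAs fell. With the trend of fold change with level among nuclear genes removed, 7 of the 13 mRNAs and 11 of all members were called lower, and the median of the mRNAs was -0.19.

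Mitochondrial DNA is transcribed by a dedicated RNA polymerase with nuclear-encoded helper proteins. Of 10 tested genes of this machinery 5 fell and 0 rose (median log2 fold change -0.19), beside 16.9% and 16.2% of all tested genes. TEFM, the elongation factor, read 11.995, 13.4 and 12.7 CPM in PBS and 8.79, 9.93 and 11.3 CPM in TPBC-PEG. Its groups were apart and it fell by 0.35 ± 0.11 (edgeR adjusted p 0.0117), a call lost without PBS replicate 2 (0.0565) or TPBC-PEG replicate 1 (0.113). MTERF3, a factor bound to mitochondrial DNA that lowers its transcription, fell by 0.34 ± 0.077 (edgeR adjusted p 0.000705). TFAM, which packs mitochondrial DNA and opens its promoters, is named here after its values were seen: it read 216, 203 and 204 CPM in PBS and 180.3, 186 and 172 CPM in TPBC-PEG, groups that were apart, and fell by 0.21 ± 0.040 (edgeR adjusted p 3.21e-05). The number of these 10 genes that fell was 3 without PBS replicate 2 or TPBC-PEG replicate 2, and 2 without TPBC-PEG replicate 1. It was 3 with DESeq2 and with scaling by library size alone.

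Of 24 tested genes for the processing and stability of mitochondrial transcripts, 13 fell and 0 rose (median log2 fold change -0.17). The shares of all tested genes were 16.9% and 16.2%. CLUH is counted in this list, although the mRNAs it binds are nuclear-encoded ones of mitochondrial proteins, in the cytosol. It read 235, 235 and 232 CPM in PBS and 162, 161 and 177 CPM in TPBC-PEG. The groups were far apart, and CLUH fell by 0.49 ± 0.040 (edgeR adjusted p 3.15e-14). TRMT10C, a subunit of the enzyme that cuts tRNAs out at their 5′ ends, fell by 0.31 ± 0.044 (edgeR adjusted p 2.02e-07). LRPPRC, which stabilizes mitochondrial mRNAs and is likewise named after its values were seen, fell by 0.18 ± 0.036 (edgeR adjusted p 4.22e-05; 0.0532 with the level trend removed).

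Of 19 tested genes for the replication and upkeep of mitochondrial DNA 5 fell and 1 rose (median log2 fold change -0.05). Among all tested genes 16.9% fell and 16.2% rose. ATAD3A, a membrane protein tied to the nucleoids that hold this DNA, fell by 0.34 ± 0.058 (edgeR adjusted p 6.74e-06). SAMHD1, which breaks down the nucleotides used to build DNA, fell by 0.33 ± 0.076 (edgeR adjusted p 0.000521). SLC25A36, a carrier of pyrimidine nucleotides, was the one that rose, by 0.25 ± 0.038 (edgeR adjusted p 3.87e-07). The number that fell was 3 without PBS replicate 3 or TPBC-PEG replicate 1, and scaling by library size alone gave 2 that fell and 2 that rose.

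On the side of translation, 34 of 77 tested genes of mitochondrial ribosomal proteins fell and 1 rose (median log2 fold change -0.15). MRPS12 of the small subunit fell by 0.35 ± 0.073 and MRPL41 of the large subunit by 0.32 ± 0.079, while MRPL46 rose by 0.62 ± 0.18 from a level of 3.09 CPM in PBS (edgeR adjusted p 0.000157, 0.00157 and 0.00681). With the GC trend removed MRPL41 lost its call, at a log2 fold change of -0.18 (edgeR adjusted p 0.0742). Of 30 tested translation factors and insertion or assembly factors 8 fell and 0 rose, among them UQCC3, for complex III, by 0.48 ± 0.13 and ATPAF1, for complex V, by 0.35 ± 0.050. Of 19 tested enzymes that modify mitochondrial rRNA and tRNA 3 fell and 1 rose, close to or below the 16.9% and 16.2% of all tested genes. PUS1, a pseudouridine synthase, fell by 0.31 ± 0.071 (edgeR adjusted p 4e-04). TFB1M, which methylates the RNA of the small ribosomal subunit, rose by 0.28 ± 0.10 (edgeR adjusted p 0.0292). That call was lost without each library in turn except TPBC-PEG replicate 3, at edgeR adjusted p of 0.0517 to 0.123.

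The nuclear-encoded partners of the mitochondrial subunits also held called falls. Their counts stand beside 16.9% of all tested genes that fell and 16.2% that rose. In complex I 11 of 36 tested nuclear subunits fell and 0 rose (median log2 fold change -0.12), with NDUFS7, an iron-sulphur subunit, at -0.37 ± 0.068 and NDUFB10 at -0.30 ± 0.054. In complex III 6 of 9 fell and 0 rose (median -0.18), with UQCR11 at -0.40 ± 0.088 and the iron-sulphur protein UQCRFS1 at -0.24 ± 0.044. In complex IV 3 of 11 fell and 0 rose (median -0.10), with COX7B at -0.19 ± 0.043 and COX7A2 at -0.14 ± 0.048. That count was 1 without TPBC-PEG replicate 2 or 3 or without PBS replicate 1, and 6 without PBS replicate 2, and COX7A2 also lost its call without PBS replicate 3 (edgeR adjusted p 0.0577). Scaling by library size alone, or removal of the level trend, also gave 1. In complex V 9 of 19 fell and 0 rose (median -0.15), with ATP5MC1, of the rotating ring, at -0.44 ± 0.051 and ATP5F1D, of the central stalk, at -0.37 ± 0.062. Complex II, which has no mitochondrially encoded subunit, had 2 of 4 that fell, SDHD at -0.22 ± 0.054 and SDHB at -0.19 ± 0.047.

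**Figure D5:**
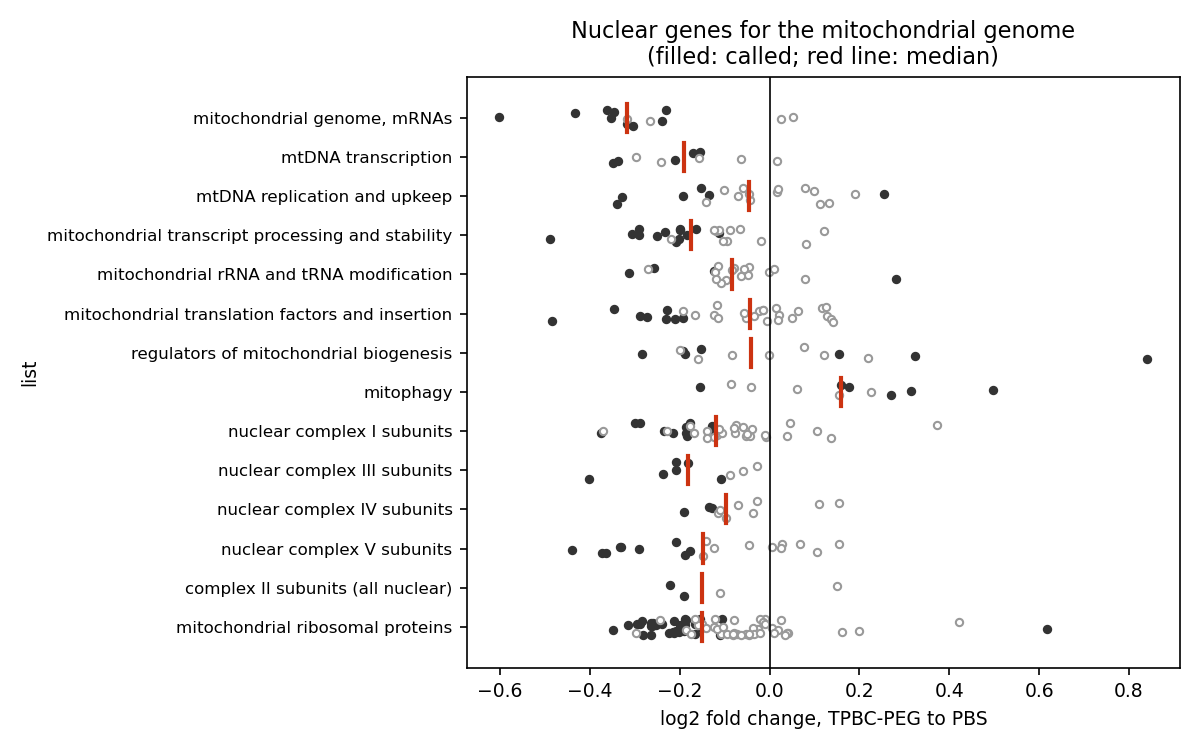
Log2 fold change of TPBC-PEG to PBS for the 13 mitochondrial mRNAs and for the tested members of each list of nuclear genes tied to them, with filled points for called genes and a red line at each median. The median of the mitochondrial mRNAs lies at -0.32, and the lists of nuclear genes have medians from -0.19 for transcription to 0.16 for mitophagy.

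Over all lists together, with each gene counted once and the 4 tested nuclear copies included, 104 of 284 tested nuclear genes fell and 11 rose (median log2 fold change -0.11). That is beside 16.9% and 16.2% of all tested genes, at any level. Of 9545 nuclear genes longer than 1000 bases with a mean of at least 10 CPM, 45.4% were called in either direction. Over all tested genes that share was 33.2%. The lists were not set beside nuclear genes of like level. The lists were chosen with earlier results of these data known, so their direction is not independent evidence.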

How the data were processed

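RNA of 6 libraries of 143B cells, 3 per group by the sample titles, was analysed. The values deposited by the authors are unnormalized counts of reads, in 1 table of 60683 genes, of which 42013 had a symbol in the name table and 58496 an entry in GENCODE release 29 on GRCh38. The submitters' processing notes name HISAT2 and GRCh38. For the library kit, the counter, its strand setting and its use of multiply aligned reads, the sources used here give nothing.

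Deposited counts were tested with edgeR 4.0.16 (limma 3.58.1, R 4.3.3): filterByExpr with the group, TMM, robust glmQLFit and glmQLFTest on the group alone, and Benjamini-Hochberg adjustment over 15846 genes. The common biological coefficient of variation was 4.19%. No molecular identifiers are described, so reads may repeat a molecule and intervals from counting would be too narrow. Pairs of libraries within a group differed by more than sampling noise. Ratios within a library used a prior count of 2 and the exact permutation test. Sequences came from GENCODE transcripts, and copies were aligned with blastn 2.17.0. On simulated data with 200 of 15438 genes changed, the share recovered was 62% for a 1.25-fold change, 84% for a 1.5-fold, 96% for a 2-fold and 100% for a 4-fold change, and 6 of 177 calls were false. The changed genes were drawn only from those above a minimum expected count, and every simulated gene had the same dispersion. These shares therefore do not describe genes below that count or genes with more spread between libraries.

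The members and lists were chosen with earlier results of these data known. All tested members are named. In each list up to 2 called genes per direction with the largest change and at least 1 CPM were named, or the most abundant where none was called. The checks by abundance, by transcript length and on sequence copies were chosen after the values were seen. Other settings were other scalings and filters, DESeq2 1.42.0 (without independent filtering or Cook's cutoff), limma-voom, a test against a 1.5-fold change, a replicate block, removal of trends with level or GC content fitted on nuclear genes, and each library left out.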

Additional observations from a re-analysis of the deposited data

How the results depend on the processing

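Besides the values reported, 18 other settings were run. The number of members called lower was 14 with DESeq2 size factors, upper-quartile, library-size and nuclear-gene scaling, without a filter and with DESeq2, 16 with limma-voom, 15 with the GC trend removed, 11 with the expression-level trend removed and 11 to 16 when a library was left out. It was 0 in the test against a 1.5-fold change, as were the mRNAs called lower and the list genes called lower and higher. The number called higher was 0 in every setting. MT-ND1, MT-ND4, MT-ND5, MT-CYB, MT-CO1, MT-CO2, MT-CO3, MT-TE, MT-TT and MT-TP stayed called in all 17 settings other than the 1.5-fold test. MT-ND6 was not called without a filter (edgeR adjusted p 0.063) or with the level trend removed (0.0532), MT-ND2 not with the level trend removed (0.201) and MT-TW not with DESeq2 (adjusted p 0.0592).

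Over all tested genes the deviations of same-numbered libraries showed little correlation, at 0.0034, 0.065 and -0.015, and not every library correlated best with its own number. In MT-ND3, MT-ND4L, MT-ATP8, MT-TQ and MT-TS1, however, replicate 2 was lowest in both groups. The same held for all 4 tested nuclear copies, which are 681 to 1543 bases long. Whether same-numbered libraries shared a step that affects such genes was not tested. With the replicate block 16 members and 11 mRNAs were called lower, and MT-ATP6 and MT-ATP8 were added (edgeR adjusted p 1.3e-06 and 4.66e-05).

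The sign of some small changes turned. With the level trend removed MT-RNR1 was at 0.028 and MT-RNR2 at 0.0080, and with the GC trend removed MT-ND3 was at -0.025. Leaving out a library gave MT-ND3 -0.14 to 0.17, MT-ND4L -0.13 to 0.15, MT-TQ -0.23 to 0.24, MT-TS1 -0.29 to 0.049 and the log2 ratio of MT-ATP8 to MT-ATP6 -0.067 to 0.21. MTATP6P1 ranged from -0.29 to 0.18 and MTCO1P12 from -0.18 to 0.073. MTATP6P1 was at 0.0024 with library-size scaling, 0.012 with limma-voom, 0.0046 with the replicate block and 0.040 with the level trend removed, and MTCO1P12 at 0.025 with library-size scaling. The cause was not tested. Library-size scaling alone gave 3213 genes higher and 1971 lower over all genes. Of the 22 tRNAs 16 had too few reads to be tested, 8 of them with 0 counts in every library.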

Other observations

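Genes that remove or regulate mitochondria did not move as one. Of 11 tested mitophagy genes 5 rose and 1 fell (median log2 fold change 0.16). Among all tested genes 16.2% rose and 16.9% fell. OPTN, a receptor that links damaged mitochondria to autophagy, rose from 8.32 ± 0.695 to 11.8 ± 0.707 CPM (SD, n = 3), by 0.50 ± 0.12 on the log2 scale (edgeR adjusted p 0.000538). BNIP3L, a receptor in the mitochondrial outer membrane, rose by 0.32 ± 0.052 (edgeR adjusted p 4.38e-06), and PHB2, an inner-membrane protein, fell by 0.16 ± 0.040 (edgeR adjusted p 0.00196; 0.125 with the trend of fold change with expression level removed). Of 14 tested regulators of mitochondrial biogenesis 4 fell and 3 rose, beside the same shares of all tested genes. With scaling by library size alone 2 of these regulators fell, and with DESeq2 1 rose. PPRC1, a coactivator, fell by 0.28 ± 0.050 (edgeR adjusted p 1.78e-05), and GABPB1, part of a factor that drives nuclear genes for mitochondria, by 0.19 ± 0.062 (0.0128), a call lost without TPBC-PEG replicate 1 (0.0814) or 2 (0.0889). MYC, a transcription factor of growth, rose by 0.32 ± 0.094 (edgeR adjusted p 0.00535). PPARGC1A, another coactivator, rose from 1.12 ± 0.165 to 1.99 ± 0.366 CPM (edgeR adjusted p 0.0214), and lost its call without PBS replicate 1 (0.0845) or TPBC-PEG replicate 2 (0.149).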
